A study of Mus musculus with 14 samples.

Results

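The genes described here are 32 genes of the G2/M transition and of mitosis, named from textbook knowledge of cell division and found by symbol in a count table of 54532 rows. The choice was made with earlier results of these data known. Counts of these genes called below therefore describe the data and are not an independent test. All 32 were found and all passed the filter on low counts in every comparison. They cover the kinase and cyclins of mitotic entry, the DNA topoisomerase and proliferation marker of dividing cells, centromere and kinetochore proteins, the spindle checkpoint, the mitotic kinases and spindle motors, the machinery of anaphase and the proteins of cytokinesis. RNA was sequenced in bulk from bone marrow cells of C57BL/6 mice, sorted as long-term haematopoietic stem cells (LT-HSC) or as granulocyte-monocyte progenitors (GMP). There were 4 groups and 14 libraries. AML1-ETO LT-HSC and AML1-ETO GMP had 3 libraries each and carried the genotype Runx1-Runx1t1, the mouse form of the t(8;21) fusion of acute myeloid leukaemia, induced by Mx1-Cre. Control LT-HSC and control GMP had 4 libraries each and are labelled WT. Poly(I:C), the double-stranded RNA mimic that triggers interferon and so drives the Mx1 promoter, was given to every group, controls included, as 4 doses of 5 mg/kg according to the labels. Mx1-Cre acts in every interferon-responsive cell and not in stem cells alone. The labels do not say whether the libraries of a group came from separate mice, so the p-values measure the spread between these libraries, which may be technical. They also give no age, sex or sort markers.

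Cells enter mitosis when Cdk1, bound to a cyclin A or B, phosphorylates its many substrates, and they leave it when the anaphase-promoting complex (APC/C) marks cyclin B and securin for destruction. Most genes of this programme are transcribed from late S phase to mitosis, under the factors NF-Y, B-Myb and FoxM1 and the MuvB complex, so their RNA is abundant in a population in which many cells divide and scarce in a resting one. Long-term stem cells are known for being mostly quiescent, whereas granulocyte-monocyte progenitors divide often. In bulk RNA, fewer dividing cells and less of these RNAs per dividing cell cannot be told apart.

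The promoters of such genes are known for 2 short elements, the CCAAT box bound by NF-Y and the cell cycle genes homology region (CHR) bound by MuvB complexes. RefSeq promoters (GRCm38.p6) were available for 27 of the 32 genes, with 28 starts since Prc1 has 2, among 32851 promoters. Those of Ccna2, Foxm1, Aurkb, Tpx2 and Kif20a were not used here. CCAAT, on either strand, lay within 250 bases before a start in 22 of the 27 genes (81.5%), against 33.8% of all promoters. The CHR, searched as TTTGAA or TTCGAA on either strand, was found in 10 genes (37.0%), against 17.1% of all promoters. Each of those 10 genes also held a CCAAT, so that 37.0% of the 27 genes held both elements, against 6.02% of all promoters. The 10 genes are Cdk1, Ccnb2, Top2a, Mki67, Bub1b, Kif11, Cdc20, Ube2c, Espl1 and Prc1. An E2F element searched as TTTGGCGC or TTTCGCGC was found in 1 gene, Cdk1, against 0.655% of all promoters. TTCGAA reads the same on both strands and was counted once, and none of these motifs contains another. A match is a description of letters, not a bound site. Within the nearest 100 bases, 20 genes (74.1%) held CCAAT, against 18.9% of all promoters, and 8 (29.6%) held a CHR, against 6.13%. The E2F element was found there in 0 of the 27 genes and in 0.289% of all promoters.

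The 120 bases before the start are shown for the first 6 genes, in the order of the roles used below, whose 250 bases held both elements. Each is written 5′ to 3′ on the strand of its gene, with CCAAT (or its complement ATTGG) and the CHR (or its complement TTCAAA) in capitals.
Cdk1: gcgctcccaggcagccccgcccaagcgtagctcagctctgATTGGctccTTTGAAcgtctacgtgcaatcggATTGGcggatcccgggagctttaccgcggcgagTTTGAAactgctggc
Ccnb2: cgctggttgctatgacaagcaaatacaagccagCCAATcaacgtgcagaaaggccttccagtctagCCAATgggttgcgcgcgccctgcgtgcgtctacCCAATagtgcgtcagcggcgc
Top2a: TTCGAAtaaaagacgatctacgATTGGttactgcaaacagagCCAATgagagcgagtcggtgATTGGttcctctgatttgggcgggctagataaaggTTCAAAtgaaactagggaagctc
Mki67: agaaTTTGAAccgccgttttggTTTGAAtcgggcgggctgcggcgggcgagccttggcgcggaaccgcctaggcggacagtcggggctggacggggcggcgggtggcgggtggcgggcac
Bub1b: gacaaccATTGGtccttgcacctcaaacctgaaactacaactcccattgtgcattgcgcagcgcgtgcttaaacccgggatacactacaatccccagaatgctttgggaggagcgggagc
Kif11: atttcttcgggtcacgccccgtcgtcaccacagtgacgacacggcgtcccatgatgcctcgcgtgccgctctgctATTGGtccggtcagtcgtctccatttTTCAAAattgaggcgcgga
The stretch of Cdk1 lies at chr10:69352913-69353032 on the minus strand, that of Ccnb2 at chr9:70421555-70421674 on the minus strand and that of Top2a at chr11:99024190-99024309 on the minus strand. The stretch of Mki67 lies at chr7:135716380-135716499 on the minus strand, that of Bub1b at chr2:118598091-118598210 on the plus strand and that of Kif11 at chr19:37376262-37376381 on the plus strand. These starts are those of RefSeq, whereas the gene coordinates given below are those of GENCODE. The GENCODE start of Cdk1 lies inside the stretch shown, upstream of its second CHR. Cdk1 shows 2 CCAAT and 2 CHR in this stretch, and Top2a shows 3 CCAAT and 2 CHR. The CHR of Ccnb2 and of Bub1b and the CCAAT of Mki67 lie further upstream than the letters shown. All 32 genes, and so these 6, were lower in AML1-ETO LT-HSC by fold change. Of the 6, 5 were called lower there, all but Ccnb2, as were 21 of the 32 and 4.69% of all genes tested. Whether the elements bear on these levels was not tested.

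Library totals ran from 13210952 to 19403864 counts, and counts of the 32 genes in a library ran from 14 to 12736. Runx1t1, whose sequence the fusion carries, checked the labels. It stood at 85.6, 164 and 125 CPM (counts scaled to library size by TMM and set per 1e+06 counts) in AML1-ETO LT-HSC against 3.97, 0, 18.2 and 11.2 CPM in control LT-HSC, a log2 fold change of 4.00 ± 1.08 (SE, adjusted p = 0.0468). In GMP it stood at 26.0, 26.3 and 45.7 CPM against 1.69 to 2.74 CPM, a log2 fold change of 3.82 ± 0.32 (adjusted p = 0.00162). The LT-HSC markers Procr, Hlf, Slamf1 and Fgd5 averaged 46.4 to 190.1 CPM in control and 52.6 to 229 CPM in AML1-ETO LT-HSC, and at most 25.1 CPM in either GMP group. Mecom, Mllt3, Ctnnal1 and Hoxb5, also LT-HSC markers, averaged 0.586 to 23.1 CPM in AML1-ETO LT-HSC against 12.0 to 111 CPM in control LT-HSC. The GMP markers Mpo and Elane averaged 16863 and 3164 CPM in AML1-ETO GMP and 18274 and 5131 CPM in control GMP. In LT-HSC, Mpo averaged 465 CPM in AML1-ETO and 73.1 CPM in control libraries, and Elane 0 and 23.6 CPM. Among the control LT-HSC libraries, 2 stood apart. Replicate 2 gave 9.95% of its counts to immunoglobulin genes, against 1.83% to 2.68% in the other 3. Replicate 3 left 109 commonly read genes (a median of at least 20 CPM over all libraries) under 0.2 CPM, against 2 to 29 in the other 13 libraries.

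In LT-HSC, all 32 genes had a lower mean in AML1-ETO than in control libraries. Of the 32, 21 fell at an adjusted p under 0.05 and 0 rose, where 4.69% of the 14589 genes tested were called lower and 7.59% higher. The median log2 fold change of the 32 was -2.18, against 0.03 over all genes tested, and the range ran from -3.41 for Cdca3 to -0.45 for Kif23. At an unadjusted p under 0.05 30 were lower, against 11.9% of all genes tested, and 0 higher, against 13.9%. For 27 genes every AML1-ETO library lay below every control library, as was so for 13.0% of all genes tested. Summed over the 32 genes, the control LT-HSC libraries held 1529.9, 1888, 3168 and 3040.2 CPM and the AML1-ETO LT-HSC libraries 423, 414 and 777 CPM. The number of calls depended on single libraries: it was 0 without AML1-ETO replicate 2, 3 without AML1-ETO replicate 1 and 9 without control replicate 4, while the median stayed between -2.69 and -1.99 whichever library was left out. Without control replicate 2 the count was 18, without control replicate 3 it was 23, and without both it was 13. Calls over all genes moved too: 223 were higher and 111 lower without AML1-ETO replicate 2, against 1107 and 684 with all libraries.

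**Figure D1:**
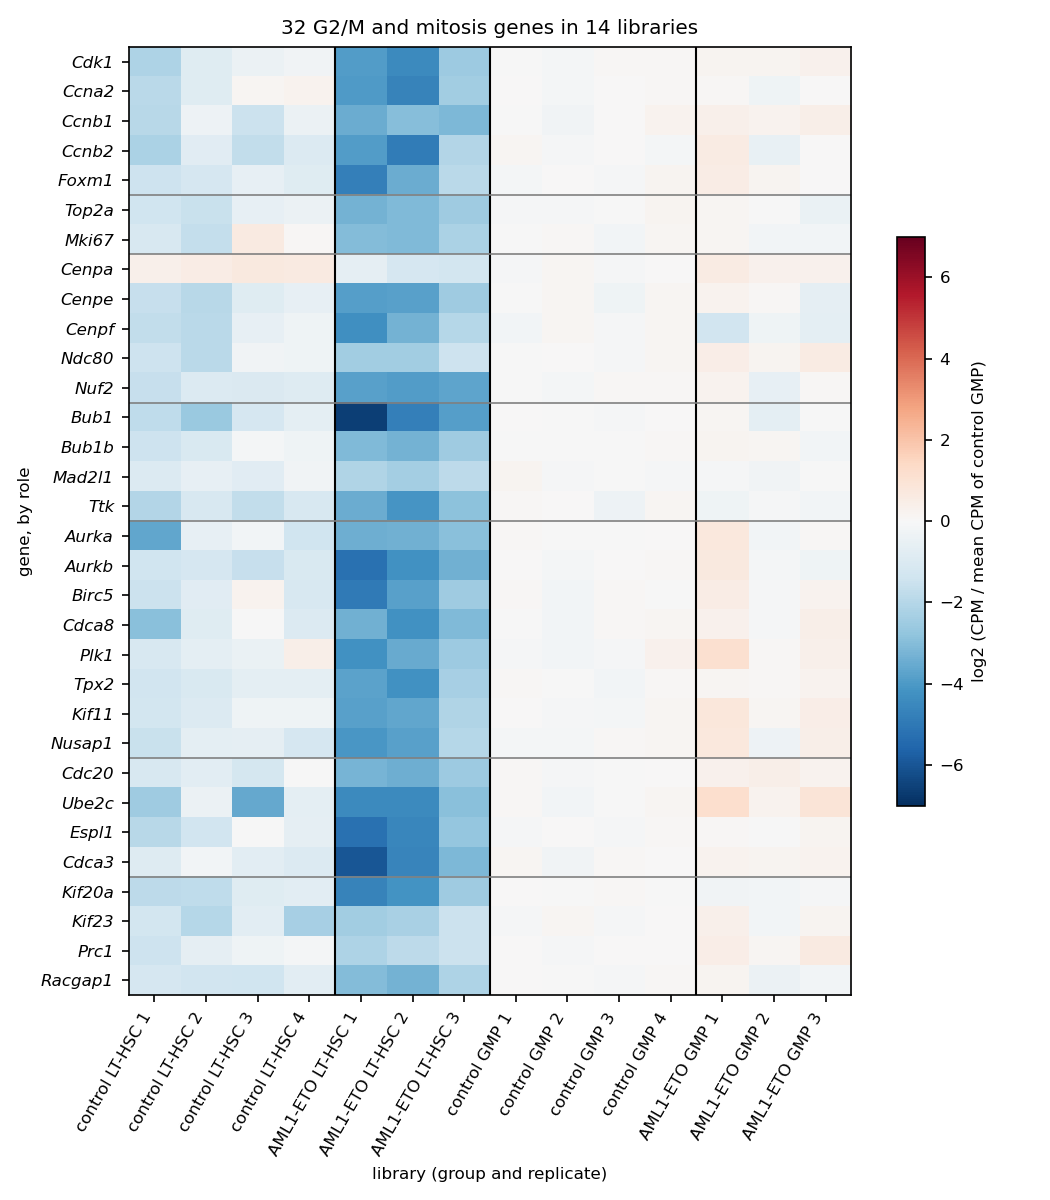
Level of the 32 genes (rows, by role) in each of the 14 libraries (columns, by group and replicate), as log2 of the CPM over the mean CPM of the 4 control GMP libraries (colour scale, no unit). All 32 genes are lower in the mean of the 3 AML1-ETO LT-HSC libraries than in that of the 4 control LT-HSC libraries. Control GMP lies around 0 because it sets the scale. By group means, AML1-ETO GMP lies nearer to 0 than AML1-ETO LT-HSC for all 32 genes.

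Other cell types' markers differed between the same LT-HSC groups. The erythroid list summed to 469 to 543 CPM in AML1-ETO and 1148 to 3068 CPM in control LT-HSC, with 8 of 16 genes called lower and none at 0 throughout a group. The B and plasma cell list summed to 405 to 888 CPM in AML1-ETO and 13405 to 77400.0 CPM in control LT-HSC, with 6 of the 13 tested genes called lower and Igll1, Vpreb2 and Ms4a1 at 0 in every AML1-ETO library. T and NK cell markers summed to 36.6 to 67.0 CPM against 178 to 989 CPM, with 5 of 9 tested genes lower and Cd3e, Cd3g and Trac at 0 in the controls. The mast cell and basophil list went the other way, at 8695 to 11357 CPM in AML1-ETO against 17.1 to 72.0 CPM in control LT-HSC, with 9 of 10 tested genes called higher and Fcer1a, Mcpt4, Tpsab1 and Prss34 at 0 in the controls. GMP markers were also higher, at 1614 to 1856 CPM against 179 to 473 CPM, with 6 of 11 tested genes called higher, 1 called lower, Elane at 0 in every AML1-ETO library and Cebpe and Csf1r at 0 in every control. Monocyte, macrophage and neutrophil markers summed to 14.7 to 63.8 CPM in AML1-ETO and 170.0 to 347 CPM in control LT-HSC, with 1 of 12 tested genes called lower and Mmp8 at 0 in every AML1-ETO library. Megakaryocyte markers overlapped, at 453 to 1399.6 CPM against 345 to 964 CPM, with 3 of 8 tested genes called higher, 2 called lower and Gp1bb at 0 in both groups. The part of these cells in the levels of the 32 genes was not tested.

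**Figure D2:**
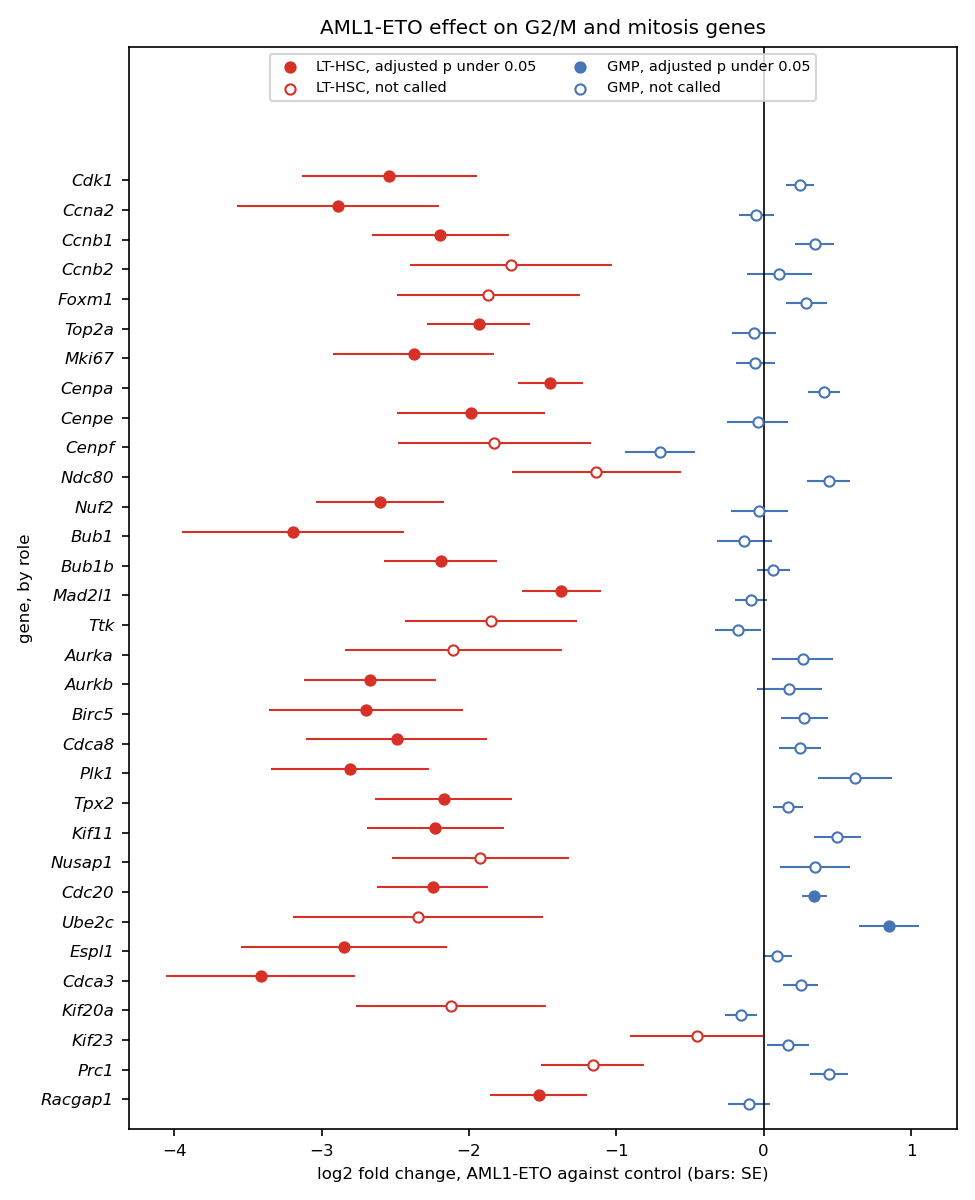
Log2 fold change of AML1-ETO against control for each of the 32 genes (rows, by role) in LT-HSC (red) and GMP (blue), with bars of 1 SE; filled points passed an adjusted p under 0.05. The LT-HSC points lie between -3.41 and -0.45 with 21 filled, and the GMP points between -0.71 and 0.85 with 2 filled.

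The genes of mitotic entry are Cdk1, its cyclins Ccna2, Ccnb1 and Ccnb2, and Foxm1, the transcription factor that drives many late cell cycle genes. Of these 5, 3 fell in AML1-ETO LT-HSC. Cdk1 (chr10:69335146-69352938), the kinase that starts mitosis, stood at 26.3, 64.7, 90.6 and 99.8 CPM in control LT-HSC and 7.94, 5.45 and 20.5 CPM in AML1-ETO LT-HSC. The groups did not overlap, and the level was 5.81-fold lower (log2 fold change -2.54 ± 0.59, adjusted p = 0.0290). In GMP it stood at 118, 107, 124 and 123 CPM in control and 136, 135 and 145 CPM in AML1-ETO libraries, all 3 above the controls, with an adjusted p of 0.149. Ccna2 (chr3:36564865-36572150), the cyclin of S phase and early mitosis, read 30.2, 62.9, 123 and 132 CPM in control and 7.35, 4.38 and 21.3 CPM in AML1-ETO LT-HSC. This was 7.39-fold lower (log2 fold change -2.89 ± 0.69, adjusted p = 0.0314), with AML1-ETO replicate 3 the highest of its group. Its GMP levels overlapped, at 114, 103, 115 and 121 CPM in control and 118, 91.4 and 115 CPM in AML1-ETO. Ccnb1 (chr13:100778650-100786570), the main B-type partner of Cdk1, read 21.5, 64.5, 28.9 and 63.0 CPM in control and 7.41, 10.3 and 9.48 CPM in AML1-ETO LT-HSC. It fell 4.58-fold (log2 fold change -2.19 ± 0.46, adjusted p = 0.0199), and its AML1-ETO libraries were close to each other. In GMP the values were 79.8, 68.5, 84.9 and 97.2 CPM in control and 105, 98.0 and 109 CPM in AML1-ETO, without overlap and with an adjusted p of 0.151. Ccnb2 (chr9:70407692-70421547), the second B-type cyclin, was not called: it ranged from 19.3 to 49.8 CPM in control and from 2.99 to 21.4 CPM in AML1-ETO LT-HSC, and AML1-ETO replicate 3 lay above the lowest control. Foxm1 (chr6:128362967-128376146) ranged from 31.1 to 58.7 CPM in control and from 3.11 to 23.3 CPM in AML1-ETO LT-HSC, without overlap, and missed the threshold at an adjusted p of 0.0912. In GMP, Ccnb2 ranged from 80.7 to 95.3 CPM in control and from 62.2 to 129 CPM in AML1-ETO. Foxm1 ranged there from 78.1 to 96.8 and from 88.5 to 124 CPM, and neither was called.

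Top2a and Mki67 are the genes most often read as marks of dividing cells. Top2a (chr11:98992943-99024189) encodes the topoisomerase that untangles sister chromatids. It read 225, 201, 398 and 452 CPM in control and 60.3, 69.6 and 105 CPM in AML1-ETO LT-HSC. The groups did not overlap and the level was 3.82-fold lower (log2 fold change -1.93 ± 0.35, adjusted p = 0.0111). GMP libraries overlapped, at 563, 563, 577 and 686 CPM in control and 668, 579.7 and 440.1 CPM in AML1-ETO. Mki67 (chr7:135689784-135716361), the gene of the Ki-67 protein that coats mitotic chromosomes, spread widely in control LT-HSC, at 253, 174, 835 and 574 CPM. It read 67.1, 65.0 and 116 CPM in AML1-ETO LT-HSC, below every control and 5.19-fold lower on average (log2 fold change -2.38 ± 0.55, adjusted p = 0.0279). In GMP it stood at 525, 577, 469 and 607 CPM in control and 606, 476 and 469 CPM in AML1-ETO, with overlap.

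Among the centromere and kinetochore genes, 3 of 5 fell in AML1-ETO LT-HSC. Cenpa (chr5:30666777-30674830), the histone H3 variant that marks the centromere, was the least variable of the 32 in control LT-HSC, at 142, 161, 176 and 175 CPM. It read 72.3, 49.6 and 45.4 CPM in AML1-ETO LT-HSC, 2.73-fold lower (log2 fold change -1.45 ± 0.22, adjusted p = 0.00609). In GMP it stood at 106, 122, 103 and 113 CPM in control and 164, 139 and 135 CPM in AML1-ETO, all 3 above the controls, at an adjusted p of 0.0542 that missed the threshold. Cenpe (chr3:135212537-135273611), a kinesin that moves chromosomes to the spindle equator, read 27.9, 22.7, 47.6 and 57.3 CPM in control and 6.03, 6.30 and 15.2 CPM in AML1-ETO LT-HSC. The groups were apart, with a 3.97-fold lower level (log2 fold change -1.99 ± 0.50, adjusted p = 0.0385). Its GMP levels overlapped, at 85.2, 94.5, 70.5 and 94.8 CPM in control and 101, 90.8 and 56.7 CPM in AML1-ETO. Nuf2 (chr1:169497934-169531464), a subunit of the NDC80 complex that holds microtubules, read 17.7, 27.2, 26.0 and 29.0 CPM in control and 3.76, 3.53 and 4.16 CPM in AML1-ETO LT-HSC. Both groups were tight and the level was 6.09-fold lower (log2 fold change -2.61 ± 0.43, adjusted p = 0.00870). Its GMP levels were 51.8, 48.9, 56.0 and 56.4 CPM in control and 62.0, 36.1 and 56.7 CPM in AML1-ETO, with overlap. Ndc80 (chr17:71496100-71526857), its partner subunit, was not called and overlapped, ranging from 9.75 to 30.9 CPM in control and from 6.76 to 13.2 CPM in AML1-ETO LT-HSC (log2 fold change -1.14 ± 0.57). Cenpf (chr1:189640606-189688086), a large kinetochore protein, ranged from 16.2 to 48.7 CPM in control and from 3.11 to 15.3 CPM in AML1-ETO LT-HSC, without overlap and at an adjusted p of 0.112. It also had the lowest fold change of the 32 in GMP, from 54.1 to 66.7 CPM in control and from 23.9 to 49.2 CPM in AML1-ETO (log2 fold change -0.71 ± 0.24, adjusted p = 0.112). Ndc80 ranged in GMP from 34.5 to 40.0 CPM in control and from 41.6 to 55.0 CPM in AML1-ETO, not called.

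The spindle checkpoint delays anaphase until every kinetochore is attached, and 3 of its 4 genes fell in AML1-ETO LT-HSC. Bub1 (chr2:127801122-127831865), the checkpoint kinase at kinetochores, read 23.2, 13.0, 35.7 and 48.8 CPM in control and 0.836, 2.92 and 5.56 CPM in AML1-ETO LT-HSC. The level was 9.15-fold lower (log2 fold change -3.19 ± 0.75, adjusted p = 0.0307), and AML1-ETO replicate 1 held the 14 counts that were the lowest of any member. Among GMP libraries it stood at 81.4, 77.7, 76.1 and 82.1 CPM in control and 87.5, 49.5 and 77.6 CPM in AML1-ETO, with replicate 2 of the latter low. Bub1b (chr2:118598211-118641591), the BubR1 protein of the inhibitor that holds back the APC/C, read 50.2, 63.8, 124 and 109 CPM in control and 15.6, 13.4 and 23.9 CPM in AML1-ETO LT-HSC. The groups were apart, 4.57-fold (log2 fold change -2.19 ± 0.38, adjusted p = 0.0101). GMP libraries gave 131, 131, 132 and 145 CPM in control and 153, 147 and 118 CPM in AML1-ETO, with overlap. Mad2l1 (chr6:66535390-66547220), the Mad2 protein of the same inhibitor, read 46.3, 59.7, 52.0 and 76.8 CPM in control and 20.9, 17.7 and 24.9 CPM in AML1-ETO LT-HSC. Its fall was the smallest among the 21 called genes, 2.59-fold (log2 fold change -1.37 ± 0.27, adjusted p = 0.0151). The GMP values overlapped, at 101, 84.2, 89.6 and 86.5 CPM in control and 86.0, 77.2 and 88.9 CPM in AML1-ETO. Ttk (chr9:83834689-83872389), the Mps1 kinase at the top of the checkpoint, read 11.1, 21.1, 13.96 and 20.7 CPM in control and 4.12, 2.61 and 6.24 CPM in AML1-ETO LT-HSC, without overlap. It missed the threshold (log2 fold change -1.85 ± 0.58, adjusted p = 0.0772). In GMP it read 49.2, 46.4, 36.4 and 51.0 CPM in control and 37.8, 42.6 and 39.7 CPM in AML1-ETO, with overlap.

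Of the 8 genes of mitotic kinases, passenger complex and spindle, 6 fell in AML1-ETO LT-HSC. Aurkb (chr11:69045647-69051664), the kinase of the chromosomal passenger complex that corrects wrong attachments, read 50.8, 58.5, 42.9 and 62.9 CPM in control and 3.64, 6.99 and 13.2 CPM in AML1-ETO LT-HSC. Its level was 6.36-fold lower (log2 fold change -2.67 ± 0.45, adjusted p = 0.00881). Its GMP levels were 135, 120.4, 136 and 143 CPM in control and 214, 122 and 110.0 CPM in AML1-ETO, where replicate 1 was high and the other two were level with the lowest controls or below. Birc5 (chr11:117849251-117855743), the survivin subunit of the complex, read 27.2, 45.8, 94.8 and 36.6 CPM in control and 2.57, 5.53 and 14.002 CPM in AML1-ETO LT-HSC. Control replicate 3 was high and AML1-ETO replicate 3 the highest of its group, yet the groups did not overlap (6.49-fold, log2 fold change -2.70 ± 0.66, adjusted p = 0.0346). GMP libraries overlapped, at 83.7, 68.9, 83.4 and 78.1 CPM in control and 114, 73.2 and 94.6 CPM in AML1-ETO. Cdca8 (chr4:124918465-124939311), the borealin subunit, read 16.9, 69.4, 123 and 64.9 CPM in control and 12.2, 6.83 and 14.9 CPM in AML1-ETO LT-HSC. Control replicate 1 was only just above the highest AML1-ETO library, and the mean was 5.62-fold lower (log2 fold change -2.49 ± 0.61, adjusted p = 0.0349). Among GMP libraries it stood at 123, 112, 135 and 137 CPM in control and 157, 119 and 169.7 CPM in AML1-ETO, with overlap.

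Plk1 (chr7:122159439-122169873), the polo kinase that acts from mitotic entry to cytokinesis, read 29.3, 39.7, 45.0 and 83.0 CPM in control and 3.28, 5.53 and 11.0 CPM in AML1-ETO LT-HSC. The groups were apart, 6.99-fold (log2 fold change -2.81 ± 0.54, adjusted p = 0.0139). GMP libraries gave 58.7, 54.5, 60.5 and 78.3 CPM in control and 139, 66.5 and 81.4 CPM in AML1-ETO, with replicate 1 the highest and an adjusted p of 0.181. Tpx2 (chr2:152847964-152895321), the spindle protein that activates Aurora A, read 55.8, 66.6, 87.9 and 87.3 CPM in control and 10.5, 7.53 and 28.4 CPM in AML1-ETO LT-HSC. AML1-ETO replicate 3 was again the highest of its group, and the mean was 4.50-fold lower (log2 fold change -2.17 ± 0.46, adjusted p = 0.0211). In GMP it read 147, 140.4, 126 and 153 CPM in control and 154, 149 and 168 CPM in AML1-ETO, with overlap. Kif11 (chr19:37376403-37421859), the Eg5 motor that pushes the spindle poles apart, read 68.2, 84.4, 136 and 133 CPM in control and 12.0, 13.3 and 38.0 CPM in AML1-ETO LT-HSC. It was 4.69-fold lower (log2 fold change -2.23 ± 0.47, adjusted p = 0.0195). Its GMP levels were 167, 158, 150.5 and 185 CPM in control and 286, 179.8 and 225 CPM in AML1-ETO, with replicate 2 below the highest control and an adjusted p of 0.0940. Nusap1 (chr2:119618298-119651244), which bundles spindle microtubules, read 18.3, 33.8, 34.6 and 23.7 CPM in control and 3.23, 3.76 and 13.5 CPM in AML1-ETO LT-HSC. The groups did not overlap, but it missed the threshold (log2 fold change -1.92 ± 0.60, adjusted p = 0.0748). Among GMP libraries it stood at 49.1, 49.2, 56.2 and 58.9 CPM in control and 89.0, 41.8 and 70.8 CPM in AML1-ETO, with overlap. Aurka (chr2:172356190-172370535), the kinase of centrosomes and spindle poles, spread from 4.32 to 47.1 CPM in control LT-HSC, where replicate 1 lay below the AML1-ETO libraries at 4.96 to 7.09 CPM, and it was not called. In GMP Aurka ranged from 51.5 to 55.6 CPM in control and from 46.9 to 87.7 CPM in AML1-ETO.

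The genes of anaphase and ubiquitin transfer had the lowest median of the 7 roles in LT-HSC, -2.60, with 3 of 4 lower. Cdc20 (chr4:118432901-118437352), the activator that turns the APC/C on at anaphase, read 63.1, 80.7, 57.8 and 133 CPM in control and 13.9, 12.7 and 22.9 CPM in AML1-ETO LT-HSC. It was 4.74-fold lower (log2 fold change -2.25 ± 0.38, adjusted p = 0.00887). In GMP it was one of the genes called higher, at 142, 129.5, 131 and 138 CPM in control and 168, 179.9 and 161 CPM in AML1-ETO. Those groups did not overlap, and the rise was 1.27-fold (log2 fold change 0.35 ± 0.09, adjusted p = 0.0454). Ube2c (chr2:164769898-164778822), the ubiquitin-conjugating enzyme of the APC/C, was erratic in control LT-HSC, at 12.2, 50.7, 5.57 and 41.5 CPM, and had the largest spread of the 32 there. AML1-ETO LT-HSC read 3.05, 3.07 and 9.05 CPM, which overlapped control replicate 3, and it was not called (log2 fold change -2.35 ± 0.85, adjusted p = 0.115). GMP libraries gave 70.2, 58.7, 66.5 and 74.8 CPM in control and 153, 80.5 and 128 CPM in AML1-ETO. All 3 lay above the controls, a 1.80-fold rise (log2 fold change 0.85 ± 0.21, adjusted p = 0.0401). Espl1 (chr15:102296266-102324357), the separase that cuts cohesin, read 33.4, 50.8, 125 and 83.3 CPM in control and 3.46, 5.38 and 19.8 CPM in AML1-ETO LT-HSC. It was 7.20-fold lower (log2 fold change -2.85 ± 0.70, adjusted p = 0.0346). Its GMP values overlapped, at 122, 133, 124 and 138 CPM in control and 137, 125 and 146 CPM in AML1-ETO. Cdca3 (chr6:124829547-124833701), a factor that targets the mitotic inhibitor Wee1 for ubiquitination, had the largest fall of the 32. It read 40.3, 67.1, 46.1 and 39.0 CPM in control and 1.19, 3.07 and 8.44 CPM in AML1-ETO LT-HSC, 10.7-fold lower (log2 fold change -3.41 ± 0.64, adjusted p = 0.0127). In GMP it read 81.9, 63.5, 79.6 and 77.4 CPM in control and 90.7, 85.1 and 90.7 CPM in AML1-ETO, without overlap but at an adjusted p of 0.243.

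The 4 genes of the central spindle and cytokinesis had the median nearest to 0 in LT-HSC, -1.34, with 1 called lower. Racgap1 (chr15:99620496-99651656), a subunit of centralspindlin, read 71.3, 65.6, 61.1 and 98.2 CPM in control and 19.6, 16.5 and 36.2 CPM in AML1-ETO LT-HSC. It was 2.88-fold lower (log2 fold change -1.53 ± 0.33, adjusted p = 0.0220). Its GMP levels were 167, 159, 155 and 171 CPM in control and 186, 123 and 142 CPM in AML1-ETO, with overlap. Prc1 (chr7:80294450-80316259), which crosslinks microtubules of the midzone, read 27.3, 48.8, 62.8 and 69.8 CPM in control and 17.1, 21.7 and 26.5 CPM in AML1-ETO LT-HSC. These were barely apart, with control replicate 1 just above AML1-ETO replicate 3, and missed the threshold (log2 fold change -1.16 ± 0.35, adjusted p = 0.0679). Among GMP libraries it stood at 76.2, 72.4, 77.4 and 77.9 CPM in control and 106, 83.2 and 117 CPM in AML1-ETO, all 3 above the controls, at an adjusted p of 0.0749. Kif20a, the midzone kinesin that carries the passenger complex, ranged from 17.6 to 36.7 CPM in control and from 2.45 to 11.3 CPM in AML1-ETO LT-HSC, without overlap, at an adjusted p of 0.0688. Kif23 (chr9:61915905-61946774), the motor of centralspindlin, had the smallest difference: it ranged from 17.95 to 54.7 CPM in control and from 17.0 to 32.5 CPM in AML1-ETO LT-HSC, with overlap (log2 fold change -0.45 ± 0.45, adjusted p = 0.630). In GMP, Kif20a ranged from 60.2 to 65.1 CPM in control and from 52.9 to 58.4 CPM in AML1-ETO. Kif23 ranged there from 86.7 to 98.0 and from 78.5 to 118 CPM, and neither was called. The exons of 10 of the 32 genes overlap those of another gene in GENCODE M21. Foxm1 overlaps Tex52 and Gm44596, and Top2a overlaps Gm23451, on the same strand, where no strand setting separates the reads. The others overlap a gene on the other strand, and the strand setting is not given in the sources used here. Reads of Ccna2 and Exosc9, Nusap1 and Oip5, Cdc20 and Elovl1 or Ube2c and Tnnc2 thus cannot be told apart where they overlap. The same holds for Kif20a and Cdc23, Prc1 and Rccd1, Cdca8 and 9930104L06Rik, and Plk1 and Gm44985.

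**Figure D3:**
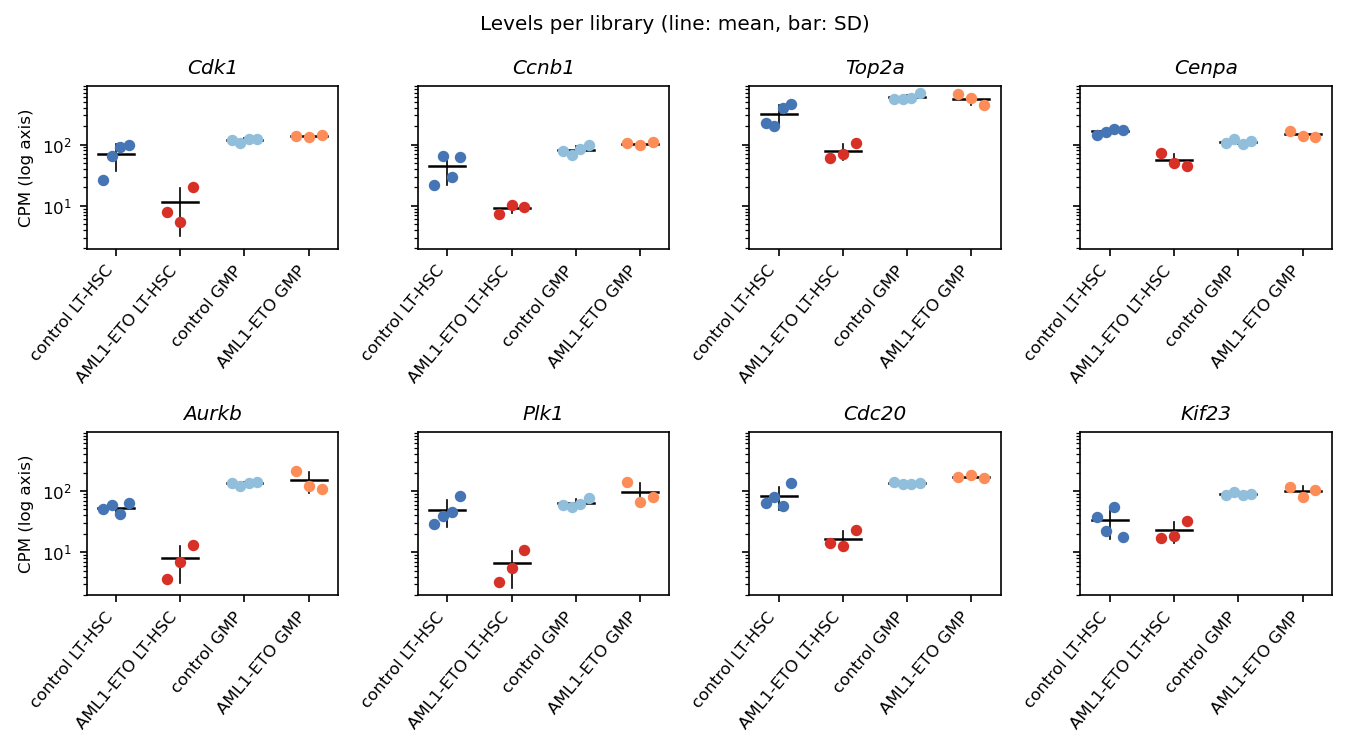
CPM (log axis) in each library of the 4 groups for 8 of the 32 genes, picked as examples from several roles but not from the spindle checkpoint. Points are libraries, horizontal lines group means and vertical bars 1 SD. For Cdk1, Ccnb1, Top2a, Cenpa, Aurkb, Plk1 and Cdc20 the 3 AML1-ETO LT-HSC libraries lie below all 4 controls, whereas for Kif23 they overlap.

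In GMP few of these genes were called in the same comparison. Of the 32, 2 rose (Cdc20 and Ube2c) and 0 fell, where 5.47% of the 13981 genes tested were called higher and 3.96% lower. The share of the 32 called higher is thus near that of all genes. The median log2 fold change was 0.17, against -0.03 over all genes tested, with 21 genes (65.6%) above 0 against 47.3% of all. At an unadjusted p under 0.05, 9 were higher, against 12.7% of all genes tested, and 1 was lower, against 11.4%. Groups did not overlap for 8 genes that were higher (Cdk1, Ccnb1, Cenpa, Ndc80, Cdc20, Ube2c, Cdca3 and Prc1), as was so for 10.6% of all genes tested, and for 2 that were lower (Cenpf and Kif20a), as for 16.1% of all. The calls depended on single libraries, and so did those over all genes. Without any 1 of the 4 control GMP libraries none of the 32 remained, without AML1-ETO replicate 1 there was 1, and without AML1-ETO replicate 2 there were 9 higher and 1 lower. Over all genes, 1550 were higher and 1964 lower without AML1-ETO replicate 2. Without control GMP replicate 3, 116 were higher, and without control GMP replicate 1, 12 were lower, against 765 and 554 with all libraries. The summed level of the 32 genes was 3897, 3827, 3783 and 4262 CPM in control GMP and 4905, 3822 and 4044 CPM in AML1-ETO GMP, so that only AML1-ETO replicate 1 lay above every control. That library had the highest value of its group for 19 of the 32 genes, and replicate 2 the lowest for 21. The erythroid markers moved with this order: they summed to 5397, 235 and 1949 CPM in AML1-ETO GMP against 237 to 283 CPM in control GMP, with 5 of 15 tested genes called higher and Hba-a2 and Slc4a1 at 0 in every control. Mast cell and basophil markers summed to 2563, 2909.8 and 3615 CPM against 533 to 727 CPM, with 8 of 10 tested genes called higher and Mcpt4, Tpsb2 and Tpsab1 at 0 in the controls. Monocyte, macrophage and neutrophil markers summed to 5649, 763 and 1508 CPM against 1156 to 1294 CPM, in the same order of libraries as the erythroid list, with 7 of 13 genes called higher and none at 0 throughout a group. Megakaryocyte markers summed to 275, 191 and 2422 CPM against 87.4 to 118 CPM, with 3 of 7 tested genes called higher and Gp1bb at 0 in both groups. LT-HSC markers summed to 355, 252 and 661 CPM against 364 to 412 CPM, with 3 of 11 tested genes called higher, 1 called lower and Hoxb5 at 0 in AML1-ETO GMP. The B cell list (46.3 to 465 CPM against 160.4 to 191 CPM) and the T and NK cell list (274 to 352 CPM against 275 to 323 CPM) overlapped, with 0 of 4 and 1 of 4 tested genes called higher and none called lower. Their part in the levels of the 32 genes was not tested.

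Whether the effect of AML1-ETO differed between the cell types was tested directly, as the effect in GMP minus the effect in LT-HSC in a fit of all 14 libraries. The difference was above 0 for all 32 genes and was called for 25 of them, with 0 called below 0, where 3.43% of the 16116 genes tested were called higher and 2.91% lower. Its median was 2.40 on the log2 scale, against 0.01 over all genes, and it ran from 0.69 for Kif23 to 3.73 for Cdca3. Cdca3 had a difference of 3.73 ± 0.61 (SE, adjusted p = 0.00349), Plk1 of 3.50 ± 0.59 (adjusted p = 0.00416) and Cenpa, with the smallest adjusted p of the 32, of 1.94 ± 0.24 (adjusted p = 0.000789). Ube2c, not called in LT-HSC alone, differed by 3.27 ± 0.85 (adjusted p = 0.0343), and Ttk, Nusap1 and Prc1 were likewise called. Of 20 alternatives, 11 lost the call of Ube2c, 11 that of Ttk, 10 that of Nusap1 and 2 that of Prc1, while those of Cdca3, Plk1 and Cenpa were lost in 0. Ccnb2, Foxm1, Cenpf, Ndc80, Aurka, Kif20a and Kif23 were not called, with adjusted p from 0.0541 for Foxm1 to 0.468 for Kif23. The count was 13 without AML1-ETO LT-HSC replicate 2 and between 17 and 28 without any other single library. Over all genes, 235 were called higher and 236 lower without AML1-ETO LT-HSC replicate 2, against 552 and 469 with all libraries.

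The levels of GMP and LT-HSC were compared within each genotype. In control mice 12 of the 32 genes were called higher in GMP and 1 was called lower, where 13.9% of the 16116 genes tested were higher and 10.6% lower. The median log2 fold change was 0.90, against 0.02 over all genes, and 23 genes were higher without overlap, as were 20.8% of all genes. The 12 called genes were Ccnb1, Top2a, Cenpe, Nuf2, Bub1, Mad2l1, Ttk, Aurkb, Tpx2, Kif20a, Kif23 and Racgap1. Ttk (log2 fold change 1.45 ± 0.29, adjusted p = 0.00272) and Kif23 (1.45 ± 0.31, adjusted p = 0.00433) had the largest values, while Cdk1 (0.75 ± 0.38), Plk1 (0.36 ± 0.37) and Mki67 (0.25 ± 0.37) were not called. Cenpa was the gene called lower in GMP (-0.56 ± 0.15, adjusted p = 0.0183), at 103 to 122 CPM against 142 to 176 CPM, which is without overlap, as in 11.4% of all genes. The count of 12 became 6 without control LT-HSC replicate 1, control GMP replicate 1 or control GMP replicate 4, 7 without control GMP replicate 2, and 7 with RLE size factors. Over all genes, those called higher ran from 1505 to 2498 with 1 library left out, against 2247 with all libraries. The call of Cenpa was lost without control GMP replicate 1 or 3.

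In AML1-ETO mice all 32 genes were called higher in GMP than in LT-HSC, where 12.6% of all genes tested were called higher and 9.15% lower. The median log2 fold change was 3.29, against 0 over all genes, from 1.39 for Cenpa to 4.57 for Ube2c, and no gene overlapped, as was so for 21.1% of all genes. Bub1 was 23.0-fold higher in GMP, Cdca3 20.9-fold, Aurkb 18.7-fold, Top2a 7.20-fold and Mad2l1 3.97-fold. At least 31 genes were called without any 1 library. This comparison and that in control mice contrast different libraries, but both come from 1 fit of all 14 libraries with a shared filter, scaling and spread. Each also shares its libraries with the comparisons within a cell type, so these values are not separate evidence.

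Levels of different genes were set against each other per length of exon, merged over all transcripts of a gene in GENCODE. The order of genes depends on that length, and which transcripts were expressed was not tested. Per kilobase, Mki67 (45.6 CPM per kilobase), Cdc20 (44.8) and Top2a (35.4) had the highest means in control LT-HSC, with SDs of 30.3, 18.5 and 13.8 that exceed the steps between them. In control GMP, Cdc20 (72.4 CPM per kilobase), Top2a (66.3) and Ccnb2 (57.3) had the highest means, with SDs of 3.13, 6.58 and 4.31, and the same 3 had the highest means in AML1-ETO GMP. In AML1-ETO LT-HSC the first 3 were Cenpa (9.52 CPM per kilobase), Cdc20 (8.85) and Top2a (8.67), whose SDs of 2.47 to 2.98 exceed the steps between them. Cenpf was the lowest per kilobase in all 4 groups. The spread between libraries differed by group: the median coefficient of variation over the 32 genes was 41.1% in control LT-HSC, 58.5% in AML1-ETO LT-HSC, 7.85% in control GMP and 17.7% in AML1-ETO GMP. The genes kept similar orders of libraries. AML1-ETO LT-HSC replicate 3 had the highest value of its group for 30 of the 32 genes, control LT-HSC replicate 1 the lowest for 20 and the highest for 0, and control GMP replicate 4 the highest for 22. The 32 genes lie on 15 chromosomes, with 6 on chromosome 2.

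Other genes of mitosis, from lists chosen by function, were read in the same fits. Of 100 further genes of the kinetochore, kinesins, mitotic regulators, spindle, cytokinesis and condensin, 32 fell and 1 rose in AML1-ETO LT-HSC, with a median log2 fold change of -1.64. Of all genes tested there, 4.69% were called lower and 7.59% higher. The other kinetochore and centromere genes had 6 of 31 lower (median -1.36), among them Hjurp (from a mean of 386 CPM to 181 CPM, adjusted p = 0.0323), the chaperone that loads the centromeric histone. The other kinesins had 4 of 9 lower (median -2.31), led by Kifc1 (-2.63 ± 0.47, adjusted p = 0.0107) and Kif15 (-2.71 ± 0.55, adjusted p = 0.0172). Mitotic kinases, regulators and checkpoint genes had 6 of 24 lower (median -1.52), with Gtse1 (-3.22 ± 0.55, adjusted p = 0.00923) and the kinase Nek2 (-3.58 ± 0.74, adjusted p = 0.0186) first. Wee1, the inhibitor of Cdk1, stood at 0.79 ± 0.39 and was not called (adjusted p = 0.253). The other spindle and cytokinesis genes had 12 of 26 lower (median -2.15), with Cdca5 at -2.17 ± 0.40 (adjusted p = 0.0120) and Ckap2l at -3.41 ± 0.65 (adjusted p = 0.0136). Depdc1b was the 1 gene that rose, by 1.86 ± 0.45 (adjusted p = 0.0328), from a mean of 16.9 CPM to 57.2 CPM. Condensin and shugoshin genes had 4 of 10 lower (median -1.65), Ncapg2 at -2.83 ± 0.50 (adjusted p = 0.0102) and Smc2 at -1.58 ± 0.33 (adjusted p = 0.0198), while Smc4 stood at 0.08 ± 0.27. The 14 core subunits of the APC/C, the ligase that Cdc20 and Ube2c serve and that many resting cells also use, had 0 called in either direction and a median of -0.12, from -0.78 for Anapc13 to 0.55 for Anapc2. In GMP, 0 of the 100 further genes and 0 of the 14 APC/C subunits were called, with medians of -0.02 and -0.12. Of all genes tested in GMP, 5.47% were called higher and 3.96% lower.

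**Figure D4:**
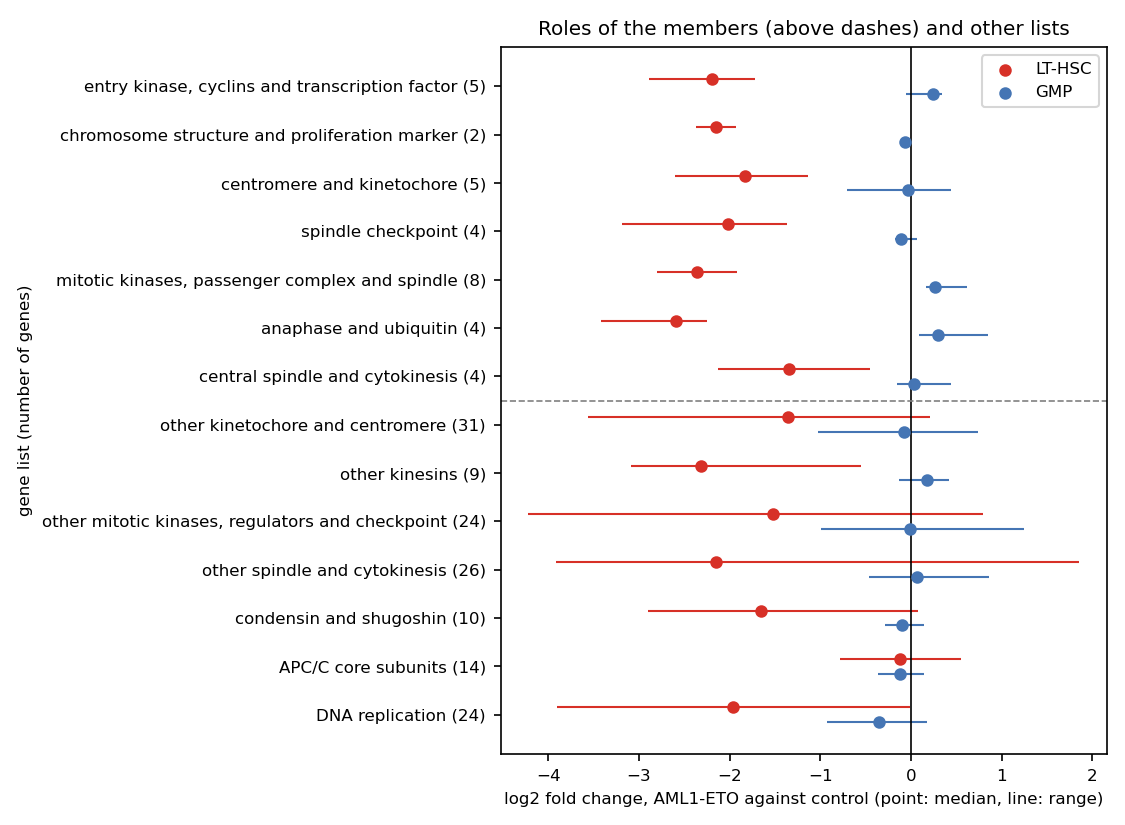
Log2 fold change of AML1-ETO against control in LT-HSC (red) and GMP (blue) for the 7 roles of the 32 genes (above the dashed line) and 7 other lists (below it), with the number of genes in brackets; points are medians and lines run from the lowest to the highest gene. The roles have LT-HSC medians from -2.60 to -1.34, the APC/C core subunits -0.12, and DNA replication -1.97 in LT-HSC and -0.35 in GMP.

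DNA replication genes, which are transcribed earlier in the cycle at the G1/S transition, were set beside the 32. Of all genes tested, 4.69% were called lower in AML1-ETO LT-HSC and 3.96% in AML1-ETO GMP. In AML1-ETO LT-HSC 18 of 24 fell, with a median of -1.97, led by the licensing factor Cdt1 (-1.86 ± 0.27, adjusted p = 0.00534) and the helicase subunit Mcm5 (-2.35 ± 0.35, adjusted p = 0.00556). In GMP 9 of 24 fell, with a median of -0.35, led by Mcm2 (-0.65 ± 0.08, adjusted p = 0.00700) and Pola1 (-0.72 ± 0.11, adjusted p = 0.0130). The summed CPM of the 32 genes over that of the 24 replication genes was 0.640, 0.664, 0.599 and 0.707 in control GMP and 1.02, 0.852 and 0.953 in AML1-ETO GMP, every AML1-ETO library above every control. In LT-HSC the same ratio was 0.700, 0.631, 0.696 and 0.891 in control and 0.337, 0.376 and 0.631 in AML1-ETO. There AML1-ETO replicate 3 reached the lowest control.

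**Figure D5:**
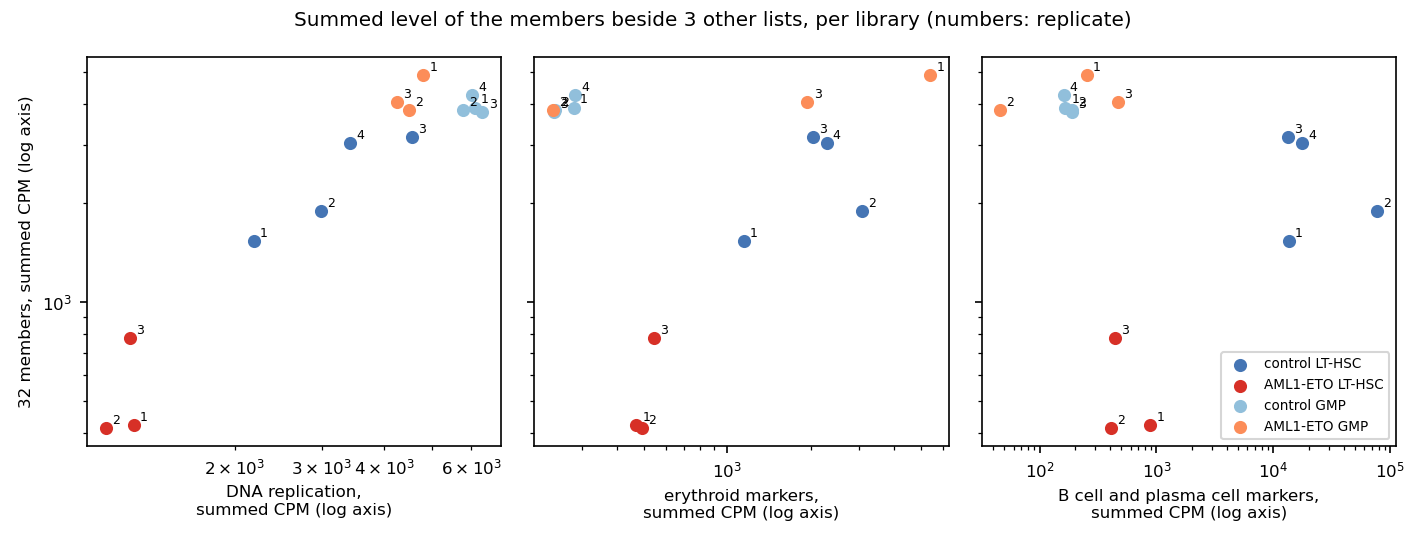
Summed CPM of the 32 genes (vertical, log axis) against the summed CPM of DNA replication genes, erythroid markers and B and plasma cell markers (horizontal, log axes); each point is 1 library, coloured by group and numbered by replicate. The AML1-ETO LT-HSC libraries lie at 414 to 777 CPM on the vertical axis, control LT-HSC at 1529.9 to 3168 CPM, and GMP at 3783 to 4905 CPM.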

How the data were processed

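The 32 genes and the lists set beside them were chosen with earlier results of these data known. Raw counts per gene symbol for 14 libraries are what the authors deposited, and HISAT2 2.0.5, featureCounts 1.5.0-p3 and mm10 are named per the submitters' processing notes. Low-input and stranded kits are named per the labels, without saying which library each served; neither the strand setting nor the annotation is stated in them. Counts were filtered with filterByExpr, scaled by TMM and tested with edgeR 4.0.16 in R 4.3.3 (two-sided quasi-likelihood F test). Adjusted p-values are Benjamini-Hochberg values over every tested gene, with calls made under 0.05. The AML1-ETO effect was fitted on the 7 libraries of each cell type (5 residual degrees of freedom). Cell types and the difference between effects used 1 fit of 14 libraries (10 degrees of freedom). The SE of a log2 fold change is its size over the square root of F. CPM used 1 TMM scaling over all libraries. Coordinates and exon lengths came by symbol from GENCODE M21 (mm10), and promoters from RefSeq (GRCm38.p6), read with Python 3.11.15. All 32 genes were named. Genes called within a cell type or for the difference were given per library and the others by range; other lists were given by counts, medians and called genes of smallest adjusted p. 1 such gene is not reported here. Alternatives were RLE and upper-quartile factors, DESeq2 1.42.0, no filter, a replicate block, the other set of samples in the fit and each library left out. The fits were tested on simulated data. No molecular identifiers are named, so copies made in amplification cannot be told from separate molecules in these counts.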

Additional observations from a re-analysis of the deposited data

Results flagged for a closer look

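Control GMP replicate 4 stood apart from the other 3 libraries of its group for 2 genes, by a gap larger than Dixon's 95% limit allows for 4 samples. Top2a read 686 CPM there and 577 CPM in the next library. Bub1b read 145 CPM there and 132 CPM in the next library. In all, 64 sets of 4 control libraries were examined, and chance alone is set to flag about 1 in 20.

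The effect of AML1-ETO differed between GMP and LT-HSC for 25 of the 32 genes, by the test of the difference itself. Of all genes tested, 3.43% were called higher and 2.91% lower. The count of 25 ran from 13 to 28 with 1 library left out. Of 20 alternatives, 11 lost the call of Ube2c, 11 that of Ttk, 10 that of Nusap1 and 10 that of Cenpe. As the effect in GMP minus that in LT-HSC on the log2 scale, the difference was 2.86 for Cdk1, 2.91 for Ccna2 and 2.63 for Ccnb1 among the genes of mitotic entry, and 1.94 for Top2a and 2.40 for Mki67. At the kinetochore it was 1.94 for Cenpa, 2.02 for Cenpe and 2.66 for Nuf2, and in the checkpoint 3.13 for Bub1, 2.34 for Bub1b, 1.37 for Mad2l1 and 1.75 for Ttk. Among kinases, passenger complex and spindle it was 2.91 for Aurkb, 3.05 for Birc5, 2.83 for Cdca8, 3.497 for Plk1, 2.41 for Tpx2, 2.80 for Kif11 and 2.34 for Nusap1. In anaphase and cytokinesis it was 2.67 for Cdc20, 3.27 for Ube2c, 3.01 for Espl1, 3.73 for Cdca3, 1.68 for Prc1 and 1.503 for Racgap1.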

How the results depend on the processing

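No member changed direction to a call of the opposite sign under any alternative run. In LT-HSC the 21 members called lower were 21 with RLE factors or no filter, 22 with upper-quartile factors, 29 with DESeq2, 14 with the replicate block and 31 in the fit of all 14 libraries, and 13 without control replicates 2 and 3 (chosen after seeing the data). Over all genes there, 312 rose and 213 fell with the block, 1669 and 1497 in the fit of all libraries, and 1695 fell with DESeq2. In GMP the 2 members called higher were 7 with DESeq2, 1 with upper-quartile factors, and 0 without a filter, with the replicate block or in the fit of all libraries. Over all GMP genes, 1594 rose and 1336 fell with DESeq2, 107 and 5 with the block and 394 and 64 in the fit of all libraries, and 260 fell with no filter. For the difference between the effects, 23 members were called with the block and 29 with DESeq2; over all genes 1186 rose and 876 fell with DESeq2 and 337 and 231 with the block, and 725 fell without control LT-HSC replicates 2 and 3. Between cell types in control mice, 7 members rose with RLE factors and 0 fell without those replicates, and 2854 of all genes fell with DESeq2. In AML1-ETO mice 2442 fell with DESeq2. The cause of these shifts was not tested. Within 100 bases, 0 members held the E2F element.

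With 1 library left out at a time, members called lower in LT-HSC ran from 0 to 23, their median from -2.69 to -1.99, and all genes from 223 to 1373 higher and 111 to 1003 lower. In GMP members ran from 0 to 9 higher and 0 to 1 lower, with 116 to 1550.0 genes higher and 12 to 1964 lower, and a median of 0.05 to 0.28. For the difference they ran from 13 to 28, with a median of 2.17 to 2.99 and 235 to 735 genes higher and 236 to 742 lower. In control mice members ran from 6 to 15 higher and 0 to 1 lower, with 1505 to 2498 genes higher and 1103 to 2092 lower. In AML1-ETO mice members ran from 31 to 32, with a median of 3.004 to 3.90, and 1294 to 2498 genes higher and 798 to 2079 lower.

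Replicate numbers were not used to pair the libraries in the main fits, since the labels do not say that they mark a shared mouse. Deviations of same-numbered libraries correlated at -0.08 to 0.04 between genotypes, -0.04 to 0.02 between control cell types and 0.09 to 0.16 between AML1-ETO cell types, where every library correlated best with its own number, a hint from the data and not the design. The share of higher among called genes moved from 61.8% to 51.7% with upper-quartile factors and 46.9% with DESeq2 in LT-HSC, and from 56.9% to 44.9% with RLE factors, 47.4% with upper-quartile factors and 41.5% with DESeq2 between control cell types. RLE factors moved the median of all genes there to -0.12. The 32 genes had as few as 14 counts in an AML1-ETO LT-HSC library, against at least 74 in the other groups.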
